A study of Mus musculus with 12 samples.

Results

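Neutrophil granule and alarmin genes encode the antimicrobial proteins, proteinases and danger signals that neutrophils carry, and the 10 genes described here are S100a8, S100a9, Lcn2, Mmp8, Mmp9, Ngp, Camp, Ltf, Csf3r and Retnlg. They were chosen by name, with earlier results of these data known, and found by the symbol that the platform annotation gives to a probe set, and all 10 were among the 19937 genes that the 12 arrays measured through a probe set of 1 symbol. Each of the 10 genes was read by 1 such probe set, and no probe set shared between genes named any of them. The arrays held RNA of Lewis lung carcinoma, a transplantable mouse tumour line, taken from lungs of C57BL/6 mice, all female, so lung tissue and infiltrating blood cells of the host could be present. Hosts were wild type and exposed to air, wild type and exposed to smoke, RelA/p65 deficient and exposed to air, or RelA/p65 deficient and exposed to smoke, with 3 arrays in each of the 4 groups. RelA, or p65, is 1 of the proteins that form NF-kB, a transcription factor of inflammation. The series title places the factor in myeloid cells, the lineage of neutrophils and macrophages, but the sources used here do not state which promoter drove a deletion, the age of the mice or the length of exposure.

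Neutrophils fill their granules in waves while they mature in bone marrow. Azurophil granules are filled early, specific granules next, gelatinase granules late, and the cytosol finally fills with S100a8 and S100a9, which form the heterodimer calprotectin. In lung inflammation, neutrophils leave the blood and release these stores, and calprotectin set free in tissue acts as an alarmin on Toll-like receptors and on the receptor RAGE. Several of the proteins are not restricted to neutrophils: airway epithelium makes Lcn2 and Ltf, and macrophages make Mmp9.

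The 250 bases before the transcription start are printed for 2 pairs of genes that the results turn on, the calprotectin pair S100a8 and S100a9 and the iron-withholding pair Lcn2 and Ltf, taken from RefSeq windows of build GRCm38.p6. They run 5′ to 3′ on the strand of the gene, and capitals mark every match, on both strands, to GGG and CC separated by 5 bases of any kind, a loose form of the NF-kB site, or to TTNNGNAA, a loose form of the site of C/EBP factors, which drive granule genes.
S100a8, chr3:90668821-90669070, plus strand: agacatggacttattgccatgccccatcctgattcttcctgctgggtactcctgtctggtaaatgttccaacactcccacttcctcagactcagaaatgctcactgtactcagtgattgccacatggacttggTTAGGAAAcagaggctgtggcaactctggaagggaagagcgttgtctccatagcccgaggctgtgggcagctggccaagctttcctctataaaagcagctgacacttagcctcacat
S100a9, chr3:90695722-90695971, minus strand: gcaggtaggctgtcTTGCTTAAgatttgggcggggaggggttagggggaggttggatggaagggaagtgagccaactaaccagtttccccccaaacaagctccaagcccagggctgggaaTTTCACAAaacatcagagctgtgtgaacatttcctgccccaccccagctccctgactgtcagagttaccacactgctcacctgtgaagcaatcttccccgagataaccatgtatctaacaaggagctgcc
Lcn2, chr2:32387740-32387989, minus strand: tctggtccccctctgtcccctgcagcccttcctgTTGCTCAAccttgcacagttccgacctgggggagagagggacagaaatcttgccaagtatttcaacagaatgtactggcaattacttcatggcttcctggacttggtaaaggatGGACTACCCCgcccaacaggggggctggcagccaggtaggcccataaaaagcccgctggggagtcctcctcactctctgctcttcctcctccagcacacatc
Ltf, chr9:111019042-111019291, plus strand: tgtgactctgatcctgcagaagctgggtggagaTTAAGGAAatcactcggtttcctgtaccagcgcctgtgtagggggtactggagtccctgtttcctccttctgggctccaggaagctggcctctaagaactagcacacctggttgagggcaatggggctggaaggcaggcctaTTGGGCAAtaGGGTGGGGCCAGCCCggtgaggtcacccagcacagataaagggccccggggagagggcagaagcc

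S100a8 and S100a9 held 1 and 2 matches to the C/EBP form and 0 to the NF-kB form. Lcn2 held 1 match to each, and Ltf held 2 to the C/EBP form and 4 overlapping ones to the NF-kB form. Promoter windows were found for 9 of the 10 genes, Mmp9 being the missing one. Of these 9, 7 held the C/EBP form, against 36.8% of 32851 windows in the table, and 3 held the NF-kB form, against 45.8%. No match to one form overlapped a match to the other. Forms this loose occur often, so a match describes letters and not a binding site.

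Array medians lay between 6.78 and 6.88 on the log2 scale, and arrays of 1 group correlated across genes with r from 0.990 to 0.998. Transcript of Rela itself was at 9.27 to 9.45 in the 6 arrays with the deficient label and at 9.01 to 9.26 in the wild type ones. It was thus not lower with the label. By limma Rela was called higher in deficient arrays, by 0.20 in air and 0.23 in smoke (adjusted p = 0.0285 and 0.00873). Neither difference passed with arrays centred on the median of named genes (adjusted p = 0.142 and 0.213). The call in air was also lost without wild type air replicate 2 or deficient air replicate 1 or 2. A level in whole tissue does not show whether myeloid cells of the host lacked RelA, and deficient below means only that label. The defining markers of normal lung were present in tissue labelled as carcinoma: the mean log2 level of 10 alveolar epithelial markers was 10.9 to 11.1 in wild type air, 8.63 to 8.82 in wild type smoke and 11.8 to 11.9 in the deficient arrays. That of 7 markers of proliferating cells was 9.97 to 10.1, 10.3 to 10.4 and 8.57 to 9.19. Wild type air replicate 1 stood apart from the other wild type air arrays in macrophage markers (mean 9.25 against 9.01 and 8.98), and the results of the 10 genes that change without it are given both ways. The labels do not say that replicates came from separate mice, so the spread behind each p-value is that of these arrays and could be technical.

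The 10 genes did not share 1 pattern. With smoke in wild type hosts 8 of 10 genes were called, 6 higher and 2 lower, where 29.0% of all genes were called (2991 higher and 2787 lower). With smoke in deficient hosts 3 were called, all higher, against 2.41% of all genes (138 higher and 343 lower). Between genotypes in air 7 were called, all higher in the deficient arrays, against 38.5% (4083 higher and 3591 lower), and between genotypes in smoke 9 were called, 7 higher and 2 lower, against 59.6% (4518 higher and 7368 lower). With so many genes called between genotypes, a call there says less about these 10 than a call with smoke in deficient hosts. These shares move with single arrays: without wild type smoke replicate 1, 44.3% of genes were called with smoke in wild type hosts, without wild type air replicate 3, 18.5%, and without any 1 deficient array, 1.31% to 1.61% with smoke in deficient hosts. The arrays of the groups did not overlap for 9, 6, 7 and 9 of the 10 genes in these comparisons, where 36.9%, 22.7%, 51.9% and 61.3% of all genes did not. The median difference of the 10 genes was 0.40, 0.19, 0.79 and 0.72 in these comparisons, beside 0.08, -0.00, -0.03 and -0.14 over all genes. Calls here are adjusted p-values under 0.05 from limma, with Benjamini-Hochberg adjustment over all 19937 genes. The comparisons share arrays (wild type air is the control of both a smoke and a genotype comparison, for instance), so calls of 1 gene in several of them are not independent of each other.

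Transcripts of the 2 calprotectin genes were higher with smoke in either genotype and higher in deficient arrays under either exposure. S100a8 measured 6.07, 6.18 and 6.18 in the wild type air arrays, 6.72, 6.84 and 6.87 in wild type smoke, 6.87, 6.86 and 6.90 in deficient air and 7.45, 7.59 and 7.30 in deficient smoke. All smoke arrays of a genotype lay above all its air arrays, and the order of the means was wild type air, wild type smoke, deficient air and deficient smoke, in which the middle 2 groups overlapped. S100a8 rose with smoke by 0.67 ± 0.08 (log2 difference ± SE, 1.59-fold; adjusted p = 2.59e-05) in wild type and by 0.57 ± 0.08 (1.48-fold; adjusted p = 0.00126) in deficient hosts. In air it was 0.73 ± 0.08 higher in deficient than in wild type arrays (1.66-fold; adjusted p = 7.13e-06), and in smoke 0.64 ± 0.08 (adjusted p = 1.34e-05). S100a9 measured 6.15, 6.26 and 6.42 in the wild type air arrays, 6.67, 6.66 and 6.91 in wild type smoke, 6.95, 6.82 and 6.77 in deficient air and 7.36, 7.59 and 7.37 in deficient smoke. Its groups stood in the same order with the same overlap in the middle. S100a9 rose with smoke by 0.47 ± 0.10 (adjusted p = 0.00262) in wild type and by 0.59 ± 0.10 (adjusted p = 0.00426) in deficient hosts, and was 0.57 ± 0.10 and 0.69 ± 0.10 higher in deficient arrays in air and in smoke. These 2 genes were the members called higher in all 4 comparisons, and each of these calls held in all 21 other settings tried, which include leaving out each array. In bulk tissue, more neutrophils, more RNA per neutrophil and a changed share of other cells cannot be told apart. Between genotypes, 10 of 10 alveolar markers were higher and 7 of 7 markers of proliferating cells lower in deficient arrays under either exposure. The part of that difference in the levels of S100a8 and S100a9 was not tested.

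**Figure D1:**
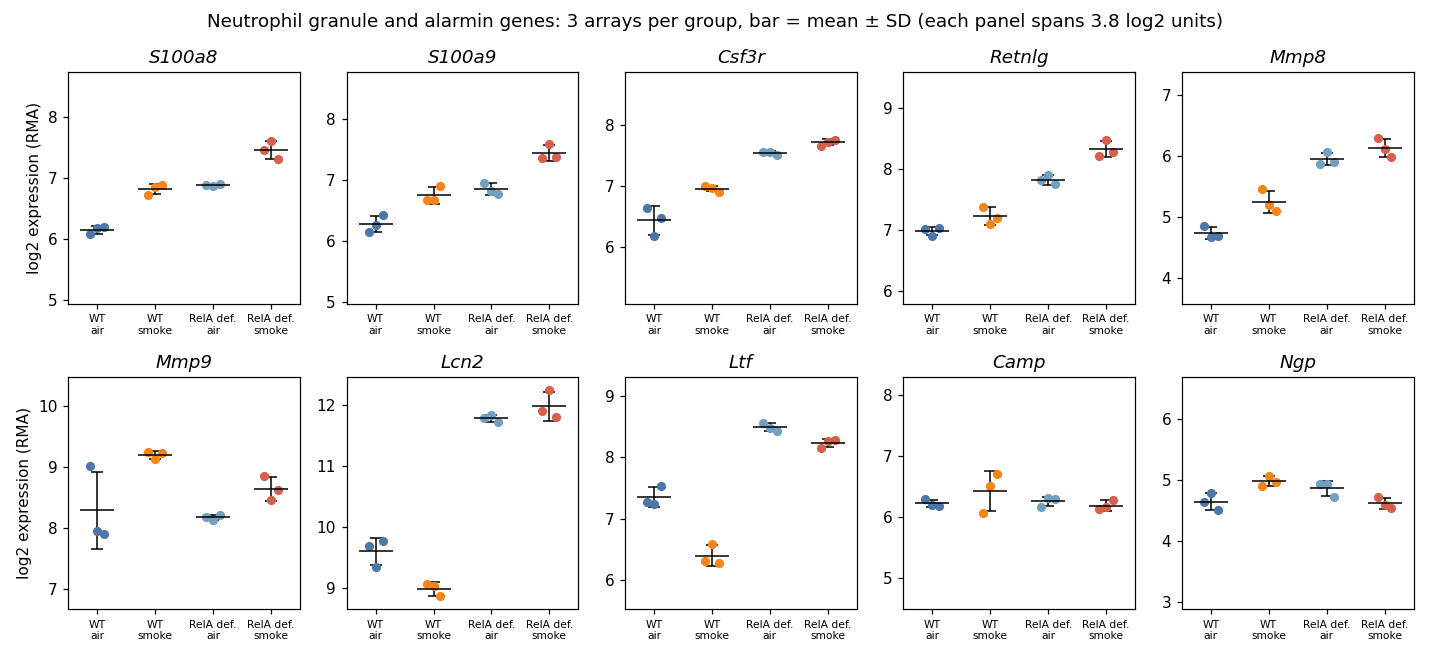
Log2 expression of the 10 genes on each array (points), with group mean ± SD (bars), by host genotype and exposure; every panel spans the same number of log2 units around its own centre. S100a8 and S100a9 step up from wild type air (means 6.14 and 6.28) to deficient smoke (7.45 and 7.44), Lcn2 and Ltf are lowest in wild type smoke, and 1 wild type air array of Mmp9 lies at 9.02 above the other 2.

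Markers of other cells moved in the same arrays. Of 10 macrophage markers 9 were higher with smoke in wild type hosts (median 0.92), with mean log2 levels of 8.98 to 9.25 in air and 9.87 to 9.99 in smoke, whereas in deficient hosts 0 were higher and 2 lower with smoke (9.65 to 9.72 in air, 9.50 to 9.65 in smoke). One of the 2, Adgre1, was lost without any 1 of the 6 deficient arrays (adjusted p = 0.0593 to 0.112). Between genotypes in air 9 of 10 macrophage markers were higher in deficient arrays (median 0.46), and in smoke 1 was higher and 6 lower (median -0.44). Of 5 measured monocyte markers 3 were higher and 2 lower in air (median 1.31), and 2 were higher and 2 lower in smoke (median 0.28). Lymphocyte markers also stood with genotype, all 5 of T cells and all 3 of B cells being higher in deficient arrays under either exposure (medians 0.85 and 0.93 in air, 0.61 and 1.44 in smoke). Erythroid markers, of which 3 of 7 were measured, were higher in deficient smoke (8.50 to 8.61) than in deficient air (7.61 to 7.74), 2 of 3 passing the test. One of them, Alas2, which starts haem synthesis in red cell precursors, rose there by 1.34 ± 0.09. The part of these cells in the levels of S100a8, S100a9, Csf3r, Retnlg and Mmp8 was not tested. RMA values have no zero, so no marker could be read as absent.

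The G-CSF receptor gene Csf3r, through which neutrophils receive their growth factor, and Retnlg, a resistin-like protein of neutrophils, were higher in deficient arrays. Csf3r measured 6.64, 6.18 and 6.47 in the wild type air arrays, 6.99, 6.96 and 6.90 in wild type smoke, 7.56, 7.56 and 7.49 in deficient air and 7.66, 7.72 and 7.75 in deficient smoke. Every deficient array lay above every wild type array. Csf3r was 1.11 ± 0.09 higher in deficient hosts in air (2.15-fold; adjusted p = 1.10e-06) and 0.76 ± 0.09 in smoke (1.69-fold; adjusted p = 1.54e-05), and rose with smoke by 0.52 ± 0.09 (adjusted p = 0.00109) in wild type hosts. With smoke in deficient hosts it differed by 0.17 ± 0.09 (95% interval -0.03 to 0.38; adjusted p = 0.616). Retnlg measured 7.02, 6.90 and 7.03 in the wild type air arrays, 7.38, 7.10 and 7.19 in wild type smoke, 7.81, 7.90 and 7.75 in deficient air and 8.21, 8.48 and 8.28 in deficient smoke. Here too the deficient arrays were all above the wild type arrays. Retnlg was 0.84 ± 0.09 higher in deficient hosts in air (1.79-fold; adjusted p = 7.11e-06) and 1.10 ± 0.09 in smoke (2.15-fold; adjusted p = 2.46e-07). It rose with smoke by 0.50 ± 0.09 in deficient hosts (adjusted p = 0.00793), a call lost without deficient air replicate 3 (0.47, adjusted p = 0.0528). In wild type hosts its smoke difference of 0.24 ± 0.09 did not pass (adjusted p = 0.0612), though it did without wild type smoke replicate 2 (0.30, adjusted p = 0.0409) and with arrays centred on the median of named genes (0.33, adjusted p = 0.0167).

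The granule proteinases did not move together. Mmp8, the neutrophil collagenase of specific granules, followed Csf3r. Mmp8 measured 4.84, 4.66 and 4.68 in the wild type air arrays, 5.45, 5.19 and 5.10 in wild type smoke, 5.87, 6.06 and 5.90 in deficient air and 6.29, 6.11 and 5.98 in deficient smoke. It lay below a log2 of 6 on 9 of 12 arrays, so its values were dim, yet no deficient array overlapped a wild type one. Mmp8 was 1.22 ± 0.10 higher in deficient hosts in air (2.32-fold; adjusted p = 1.05e-06) and 0.88 ± 0.10 in smoke (1.84-fold; adjusted p = 8.55e-06), and it rose with smoke by 0.52 ± 0.10 (adjusted p = 0.00227) in wild type hosts. In deficient hosts the smoke difference of 0.18 ± 0.10 did not pass (95% interval -0.04 to 0.41).

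Mmp9, the gelatinase of late granules that macrophages also make, was highest in wild type smoke. Mmp9 measured 9.02, 7.95 and 7.91 in the wild type air arrays, 9.24, 9.13 and 9.24 in wild type smoke, 8.19, 8.14 and 8.22 in deficient air and 8.85, 8.47 and 8.62 in deficient smoke. Wild type air replicate 1 lay more than 1 log2 unit above the other wild type air arrays, and all smoke arrays of wild type hosts were above all air arrays. Mmp9 rose with smoke in wild type hosts by 0.91 ± 0.22 (1.88-fold; adjusted p = 0.00772), and by 1.27 without that replicate (adjusted p = 1.39e-06). With smoke in deficient hosts it differed by 0.46 ± 0.22 (adjusted p = 0.504) and passed at the same difference without wild type air replicate 1 (adjusted p = 0.0152). In smoke it was lower in deficient arrays, by -0.56 ± 0.22 (adjusted p = 0.0428). That call was lost without any 1 of the wild type smoke or deficient air arrays, or without deficient smoke replicate 2 or 3 (differences of -0.47 to -0.60, adjusted p = 0.0542 to 0.135). In air the genotypes differed by -0.11 ± 0.22 (adjusted p = 0.756), and by 0.25 without wild type air replicate 1 (adjusted p = 0.0709). Macrophage markers were also highest in wild type smoke, and their part in the level of Mmp9 was not tested.

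Lcn2 and Ltf, which withhold iron from bacteria, were the members that fell with smoke in wild type hosts. Lcn2 measured 9.69, 9.36 and 9.78 in the wild type air arrays, 9.07, 9.03 and 8.87 in wild type smoke, 11.79, 11.84 and 11.73 in deficient air and 11.90, 12.25 and 11.80 in deficient smoke. The genotypes did not overlap under either exposure, and the wild type smoke arrays lay below all others. Lcn2, the siderophore-binding lipocalin, was 2.18 ± 0.12 higher in deficient hosts in air (4.52-fold; adjusted p = 5.86e-08) and 2.99 ± 0.12 in smoke (7.96-fold; adjusted p = 2.22e-10). It fell by 0.61 ± 0.12 on the log2 scale with smoke in wild type hosts (1.53-fold; adjusted p = 0.00231), and in deficient hosts it differed by 0.20 ± 0.12 (95% interval -0.07 to 0.47). Ltf measured 7.27, 7.23 and 7.53 in the wild type air arrays, 6.31, 6.58 and 6.27 in wild type smoke, 8.57, 8.49 and 8.44 in deficient air and 8.16, 8.28 and 8.28 in deficient smoke. The order of groups was that of Lcn2 except that deficient air stood above deficient smoke, without overlap. Lactoferrin, Ltf, was 1.15 ± 0.10 higher in deficient hosts in air (2.22-fold; adjusted p = 9.59e-07) and 1.85 ± 0.10 in smoke (3.61-fold; adjusted p = 2.67e-09). With smoke it fell by 0.96 ± 0.10 in wild type hosts (1.94-fold; adjusted p = 6.04e-06), and the smoke difference of -0.26 ± 0.10 in deficient hosts did not pass (adjusted p = 0.291).

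Epithelial markers had the same order of groups as Lcn2 and Ltf at its low end. Of 8 airway epithelial markers 7 were lower with smoke in wild type hosts (median -3.40), and their mean log2 level was 9.72 to 9.99 in wild type air, 6.64 to 6.76 in wild type smoke, 10.6 in every deficient air array and 10.6 to 10.7 in deficient smoke. Scgb1a1, the secretory protein of club cells, was 4.79 ± 0.11 higher in deficient than in wild type smoke arrays, and Sftpc, a surfactant protein of type II alveolar cells, 1.75 ± 0.06. All 10 alveolar markers were lower with smoke in wild type hosts and higher in deficient arrays under either exposure. The part of epithelium in the levels of Lcn2 and Ltf was not tested.

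Ngp and Camp, cathelicidin-related proteins of specific granules, differed by small amounts between groups, though Ngp was called in 2 of the 4 comparisons. Ngp measured 4.63, 4.79 and 4.50 in the wild type air arrays, 4.89, 5.05 and 4.97 in wild type smoke, 4.94, 4.93 and 4.72 in deficient air and 4.72, 4.58 and 4.54 in deficient smoke. No array reached a log2 of 6, and the largest gap between group means was 0.36. Ngp rose with smoke by 0.33 ± 0.09 in wild type hosts (adjusted p = 0.0145), a call lost without wild type air replicate 3 (0.26, adjusted p = 0.0738), without wild type smoke replicate 2 (0.29, adjusted p = 0.0586) and with quantile normalization (0.24, adjusted p = 0.056). In smoke it was lower in deficient arrays, by -0.36 ± 0.09 (adjusted p = 0.00401), and by -0.22 with quantile normalization (adjusted p = 0.0507). In air it differed by 0.22 ± 0.09 (adjusted p = 0.0697), and passed at 0.29 without wild type air replicate 2 (adjusted p = 0.0249) or deficient air replicate 3 (adjusted p = 0.0315). It also passed with array weights, quantile normalization, median centring and the replicate block (adjusted p = 0.0324, 0.0123, 0.0426 and 0.0433). Camp measured 6.28, 6.20 and 6.18 in the wild type air arrays, 6.07, 6.51 and 6.70 in wild type smoke, 6.17, 6.30 and 6.29 in deficient air and 6.12, 6.15 and 6.28 in deficient smoke. The groups of Camp overlapped in every comparison, and it passed in none of the 4, with differences from -0.25 ± 0.12 to 0.21 ± 0.12. Without wild type smoke replicate 1, its lowest array, Camp was 0.39 higher with smoke in wild type hosts (adjusted p = 0.0024) and -0.43 lower in deficient smoke than in wild type smoke (adjusted p = 5.35e-04). Both differences also passed with array weights (0.27 and -0.32, adjusted p = 0.00917 and 8.14e-04). So did they with arrays centred on the median of named genes (0.30 and -0.39, adjusted p = 0.0436 and 0.00702).

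**Figure D2:**
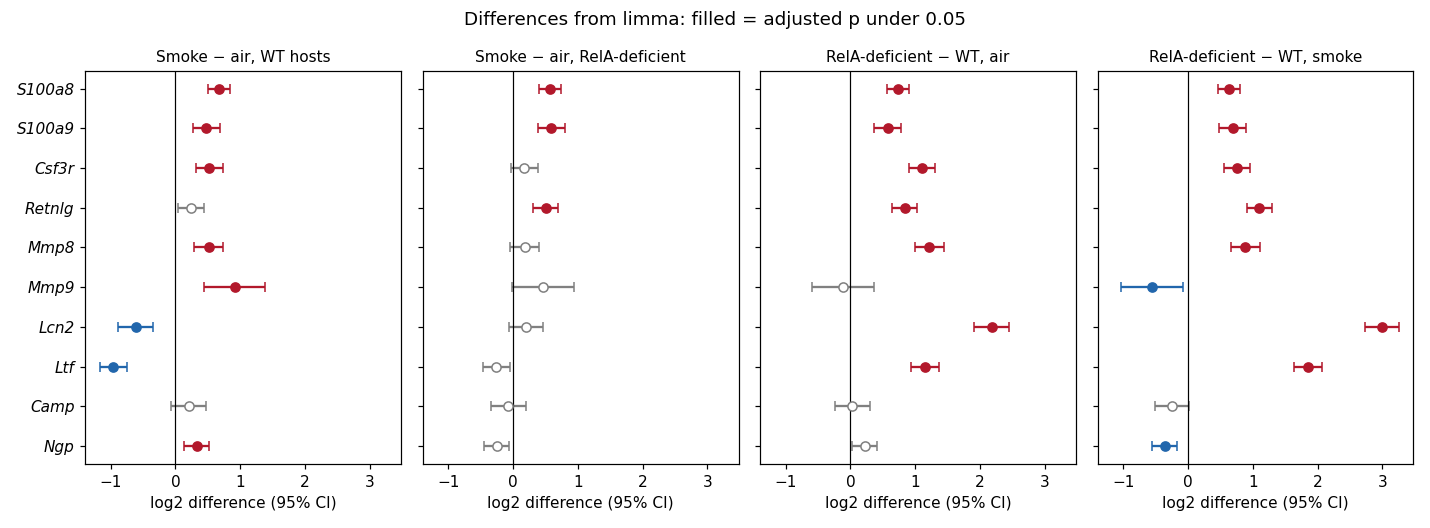
Log2 differences of the 10 genes in the 4 comparisons, from limma, with 95% intervals; filled points passed an adjusted p of 0.05 (red higher, blue lower) and open points did not. The intervals of S100a8 and S100a9 lie above 0 in all 4 panels, Lcn2 reaches 2.99 between genotypes in smoke, and Camp passes in no panel.

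Whether smoke acted alike in the genotypes was asked with the interaction, the smoke difference in deficient hosts minus that in wild type hosts. Of 10 genes 3 were called, 2 with a positive interaction and 1 with a negative one, where 14.6% of all genes were called (1773 positive and 1136 negative). Without wild type smoke replicate 1 that share was 24.9%, and 47.1% of those calls were positive. Lcn2 had an interaction of 0.82 ± 0.17 (adjusted p = 0.0058) and Ltf of 0.70 ± 0.14 (adjusted p = 0.00308) from wild type smoke differences of -0.61 and -0.96. Ngp had -0.58 ± 0.13 (adjusted p = 0.0065). For S100a8 and S100a9 the interaction was -0.10 ± 0.11 (95% interval -0.34 to 0.14) and 0.12 ± 0.14 (-0.18 to 0.42). These intervals leave room for a difference between genotypes smaller than the smoke difference itself, so they do not show that smoke acted alike. Mmp8, Csf3r and Mmp9 had -0.33 ± 0.15, -0.35 ± 0.13 and -0.45 ± 0.31 and did not pass. Without wild type air replicate 1, Csf3r (-0.45, adjusted p = 0.0205) and Mmp9 (-0.81, adjusted p = 0.0011) passed, and without wild type smoke replicate 1, Camp (-0.46, adjusted p = 0.00901) and Retnlg (0.34, adjusted p = 0.0459) did, which made 5 genes each time.

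**Figure D3:**
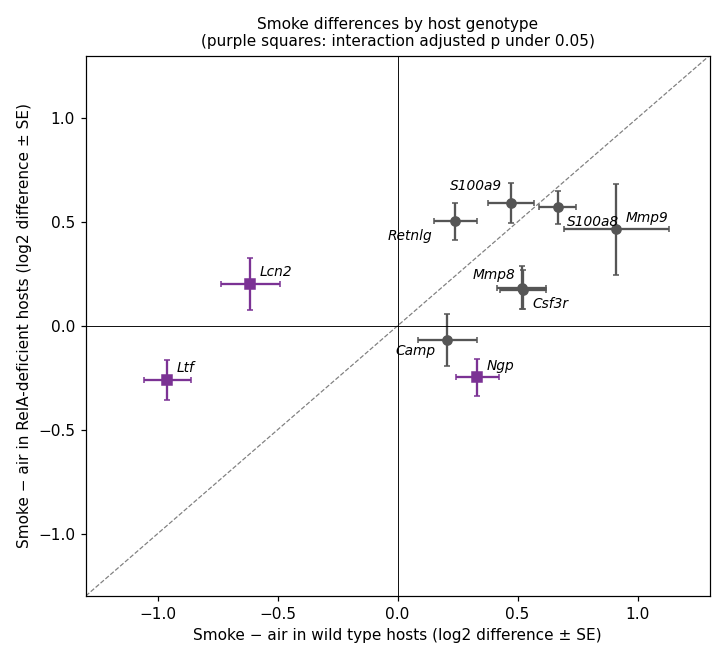
Smoke minus air in wild type hosts (horizontal axis) against the same in RelA/p65 deficient hosts (vertical axis), log2 difference ± SE for each of the 10 genes; the dashed line marks equal differences, and purple squares mark genes whose interaction passed. S100a8 (0.67 and 0.57) and S100a9 (0.47 and 0.59) lie near the line, and Lcn2 (-0.61 and 0.20) and Ltf (-0.96 and -0.26) lie above it.

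Other genes of neutrophils were taken from fixed lists. Counts in fixed lists, those of cell markers included, are to be read beside the share of all genes called. That share was 29.0% with smoke in wild type hosts and 2.41% with smoke in deficient hosts. Between genotypes it was 38.5% in air and 59.6% in smoke. The azurophil granule genes Mpo, Elane, Prtn3, Ctsg and Ms4a3, which are made in bone marrow precursors, had 0 of 5 called between genotypes in air (median -0.01, beside -0.03 over all genes), and 0 of 5 with smoke in deficient hosts. With smoke in wild type hosts 1 of 5 was higher, the proteinase Prtn3 by 0.60 ± 0.13 (2 of 5 without wild type air replicate 1 or 2 or wild type smoke replicate 1, 3 of 5 with arrays centred on the median of named genes). In smoke 3 of 5 were lower in deficient arrays, Prtn3 by -0.58 ± 0.13, Mpo by -0.29 ± 0.09 and Ctsg by -0.25 ± 0.09. In that comparison 59.6% of all genes were called (4518 higher and 7368 lower), so 3 of 5 called is close to the share. The call of Mpo was lost without wild type smoke replicate 2 or 3 or deficient smoke replicate 1 (adjusted p = 0.0571 to 0.0795), and that of Ctsg without wild type smoke replicate 2 or 3 or any 1 deficient smoke array (adjusted p = 0.0554 to 0.137). Neither passed with quantile normalization (adjusted p = 0.0541 and 0.264). The mean log2 level of the list lay between 5.58 and 6.06 on all arrays.

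Neutrophil surface receptors had 10 of 13 higher with smoke in wild type hosts (median 1.00), 2 higher and 1 lower with smoke in deficient hosts (median -0.01), 9 higher between genotypes in air (median 0.53) and 4 higher and 7 lower in smoke (median -0.35). Macrophage markers had close medians in the same comparisons, 0.92, -0.02, 0.46 and -0.44. The part of macrophages in the levels of these receptors was not tested. Cxcr2, the receptor for neutrophil chemokines, was higher in all 4 comparisons, as S100a8 was. It rose with smoke by 0.54 ± 0.11 (adjusted p = 0.00296) in wild type and by 0.66 ± 0.11 (adjusted p = 0.00517) in deficient hosts, and was 1.00 ± 0.11 and 1.12 ± 0.11 higher in deficient arrays in air and in smoke. Its relative Cxcr1 was called in 3 of them, with 0.63 in deficient smoke against air and 0.36 and 0.85 between genotypes. Receptors that monocytes and macrophages also carry did not share 1 direction between genotypes in smoke. Fcgr3, an antibody receptor, was -0.63 lower in deficient than in wild type smoke arrays, whereas the integrin subunit gene Itgb2 was 0.44 higher. Fcgr3 also rose by 1.12 with smoke in wild type hosts. The lectin Clec4e had an interaction of -2.22, which compares smoke differences and does not give a direction between genotypes in smoke. Fcgr4, a further antibody receptor, was 3.00 higher in deficient arrays in air and fell with smoke there by 1.26, a call lost without any 1 of the 6 arrays (adjusted p = 0.0563 to 0.145). The neutrophil antigen gene Ly6g was higher in 1 comparison, between genotypes in air, by 0.55 ± 0.11 (adjusted p = 0.00142), and lay below a log2 of 6 on every array.

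**Figure D4:**
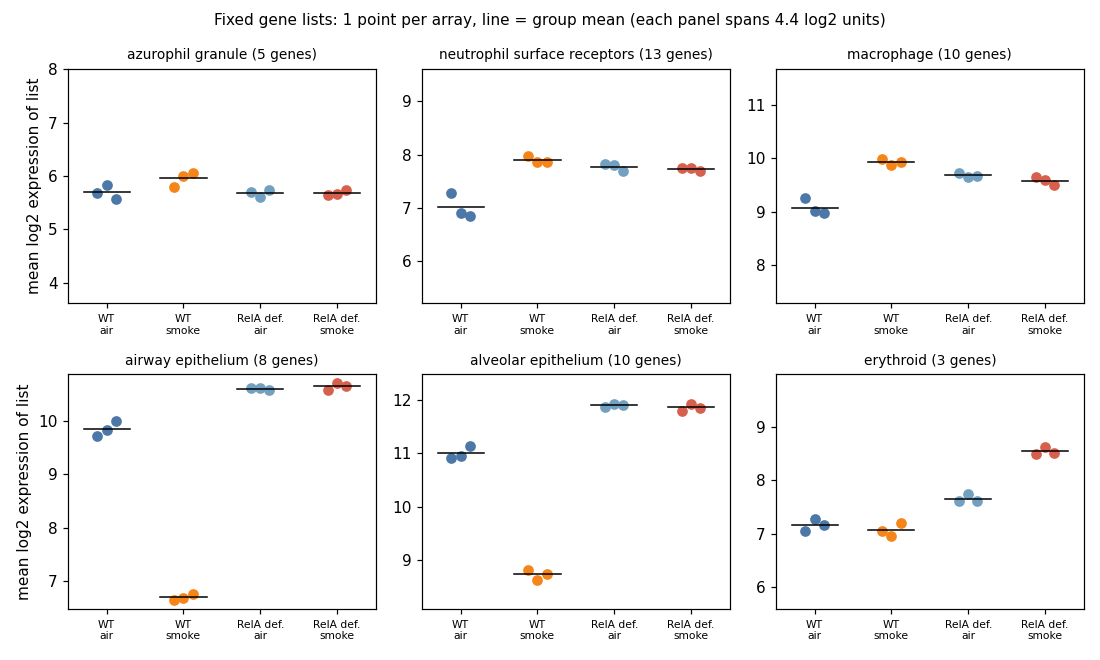
Mean log2 expression of 6 gene lists (azurophil granule, neutrophil surface receptors, macrophage, airway epithelium, alveolar epithelium, erythroid) on each array (points) with group means (lines); every panel spans the same number of log2 units. Azurophil granule genes lie between 5.58 and 6.06, macrophage markers peak in wild type smoke (9.87 to 9.99), and airway and alveolar markers are lowest there (6.64 to 6.76 and 8.63 to 8.82).

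Among 18 measured genes of other granule and granulocyte products, 7 were higher and 3 lower with smoke in wild type hosts (median 0.14), and 9 were higher and 1 lower between genotypes in air (median 0.23; 2 lower without wild type air replicate 3). Hp, haptoglobin, and Chil1, a chitinase-like protein, both also made in lung epithelium, differed with smoke in wild type hosts by -2.99 and -2.57, both called, and were 3.75 and 4.01 higher in deficient smoke than in wild type smoke. Slpi, an inhibitor of neutrophil elastase, rose by 0.44 with smoke in wild type hosts. Pglyrp1, a peptidoglycan-binding granule protein, was 2.82-fold higher in deficient arrays in air and fell with smoke there by 0.77 (adjusted p = 2.58e-05). Cybb, the catalytic subunit of the phagocyte oxidase, was 1.92 higher in deficient arrays in air. With smoke in deficient hosts 1 of 18 was higher and 2 lower, of which Slpi (0.28) and Cybb (-0.56) lost their calls when 1 array was left out (without any of the 6 compared except deficient air replicate 1 for Slpi and deficient smoke replicate 2 for Cybb; adjusted p up to 0.107), and between genotypes in smoke 8 were higher and 5 lower.

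Genes of neutrophil formation showed 5 of 8 higher and 1 lower with smoke in wild type hosts (median 0.27) and 0 of 8 called with smoke in deficient hosts. The 5 higher calls became 3 without wild type air replicate 1 or wild type smoke replicate 2, and 2 without wild type air replicate 3 or wild type smoke replicate 3. Among them Csf3 (0.31) was lost without any 1 of the wild type air arrays or wild type smoke replicate 2 or 3 (adjusted p = 0.0558 to 0.108), and Gfi1, a factor of granulocyte formation (0.30), without wild type air replicate 3 or wild type smoke replicate 3 (adjusted p = 0.0622 and 0.0545). Between genotypes 4 were higher and 1 lower in air (median 0.15), and 3 were higher and 4 lower in smoke (median -0.15). The single lower call in air was lost without wild type air replicate 2 or deficient air replicate 1, and the 4 in smoke became 2 without wild type smoke replicate 3 or deficient smoke replicate 2. Spi1, which encodes the myeloid factor PU.1, was 1.47 higher in deficient arrays in air, and Cebpd and Cebpa, members of the C/EBP family, 0.85 and 0.74. In smoke Cebpa and Cebpd were 1.55 and 0.99 higher in deficient arrays, whereas Gfi1 was -0.54 lower. Cebpa fell with smoke in wild type hosts by 0.55. The part of cells other than neutrophils in the levels of these genes was not tested. Csf3, the ligand of Csf3r, was -0.43 ± 0.10 lower in deficient than in wild type smoke arrays (adjusted p = 0.00204) and did not pass in air (-0.12 ± 0.10).

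Of 13 other S100 genes 0 were higher and 2 lower with smoke in wild type hosts, where 29.0% of all genes were called. The 0 higher became 1 without wild type smoke replicate 1, and 4 with arrays centred on the median of named genes. With smoke in deficient hosts 0 of 13 were called, where 2.41% of all genes were. That count does not set them apart from other genes. Between genotypes 4 were higher and 5 lower in air and 4 higher and 6 lower in smoke, among them S100a4, abundant in motile and mesenchymal cells, at -1.79 in air, S100a6 at -0.97 in smoke and S100a16 at 0.94 and 1.67. Of 6 other alarmins 0 were higher and 1 lower with smoke in either genotype, and neither single call was stable. Il33 in wild type hosts (-0.38) lost its call without wild type air replicate 1 or 3 or wild type smoke replicate 2 or 3 (adjusted p = 0.0623 to 0.110). The heat shock gene Hspa1a in deficient hosts (-0.44) lost it without deficient air replicate 1 or 2 or deficient smoke replicate 1 or 3 (adjusted p = 0.0502 to 0.0967). Between genotypes 3 were higher and 1 lower under either exposure (2 lower in air without wild type air replicate 2 or wild type smoke replicate 1). Il33, a cytokine released by damaged barrier cells, was 0.86 higher in deficient arrays in air and 1.18 in smoke.

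Among 11 receptors for these proteins, 6 were higher and 2 lower in deficient arrays in air, and 6 were higher and 1 lower in smoke (3 higher without deficient smoke replicate 2, or with arrays centred on the median of named genes). Ager, which encodes RAGE and marks type I alveolar cells, fell with smoke in wild type hosts by 2.95 and was 3.73 higher in deficient smoke than in wild type smoke. Tlr4, the Toll-like receptor for calprotectin, was -0.46 ± 0.09 and -0.44 ± 0.09 lower in deficient arrays in air and in smoke. Lrp2, an endocytic receptor for Lcn2, rose with smoke by 0.47 in deficient hosts and fell by 0.81 in wild type hosts. Of 6 inhibitors of Mmp8 and Mmp9, 1 was higher (2 without wild type smoke replicate 1) and 2 lower with smoke in wild type hosts: Timp1 rose by 0.54 ± 0.11, and Timp3 and Reck, both abundant in normal lung, differed by -2.62 and -2.17.

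Likeness to a member was measured as the root mean square difference over the 12 arrays after each gene was centred on its own mean. Among all genes, S100a9 was the nearest to S100a8 and S100a8 the nearest to S100a9, at 0.11 log2 units. Their next nearest genes were Cd33, a sialic acid receptor of myeloid cells, at 0.18 from S100a8, and Alox5, which starts leukotriene synthesis, at 0.18 and 0.15. Csf3r was nearest to Slc15a3 (0.09), the platelet chemokine gene Ppbp (0.10) and Bst1 (0.11), and Mmp8 to Zfp991 (0.10), the clotting factor gene F10 (0.13) and Slc15a3 (0.13). Mmp8 and Csf3r were the second closest pair of members, at 0.14. Retnlg lay nearest to Ms4a8a (0.10) and Arg2 (0.14), and Mmp9 to C3ar1 (0.21), a complement receptor. Ltf was nearest to Satb1 (0.08) and Ptgis (0.10), and Lcn2 to the acute phase gene Serpina3n (0.23). For a gene that varied little, such as Ngp, many genes are near by this measure. The 12 arrays fall into 4 groups, so the measure mainly follows the group means.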

How the data were processed

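The deposited log2 values were made by the authors with Affymetrix Expression Console and RMA, per the submitters' processing notes; RMA corrects background, normalizes by quantiles and summarizes the probes of a probe set, which narrows differences of dim genes. Of 34760 probe sets, 21640 named 1 gene, 1321 several and 11799 were not listed. Each gene took its brightest probe set, which gave 19937 genes. Differences come from limma on all 12 arrays with 1 mean per group (residual df 8, prior df 4.83), 5 contrasts, 2-sided, Benjamini-Hochberg adjusted with a limit of 0.05. The number of arrays limits the precision. The 10 genes and the 17 lists (8 of neutrophil biology, 9 of markers, 140 of 153 entries measured) were chosen with earlier results of these data known. Named list genes had the 3 smallest p-values among those called, or were fixed by name; likeness took the 3 nearest genes. The motifs, Alas2, the value of Cxcr1 in air and the centring on named genes were chosen after values were seen. Other settings tried were a filter that kept genes reaching a log2 of 6 on 3 or more arrays, the mean of probe sets, an intensity trend, array weights, quantile normalization, centring on the median of all probe sets, centring on that of named genes, the replicate number as a block, the compared groups alone and leaving out each array. Tested on simulated data for smoke in deficient hosts over 19937 genes, it recovered 99 of 100 genes with a log2 shift of 1 and 63 of 100 with a shift of 0.5, and it also called 10 of 19737 genes that had none. The simulated noise was independent between genes, with the same spread of a gene in all groups. These rates therefore need not hold for the real arrays. The fits ran in limma 3.58.1 under R 4.3.3, and motifs and plots in Python 3.11.15 with matplotlib 3.10.9.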

Additional observations from a re-analysis of the deposited data

Results flagged for a closer look

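The smoke difference differed between host genotypes for 3 of the 10 genes, by limma's interaction test, which called 14.6% of all genes. For Lcn2 the difference in deficient hosts minus that in wild type hosts was 0.82 ± 0.17 (adjusted p = 0.0058), from -0.61 in wild type and 0.20 in deficient hosts. For Ltf it was 0.70 ± 0.14 (adjusted p = 0.00308), from -0.96 and -0.26. For Ngp, which is dim on all arrays, it was -0.58 ± 0.13 (adjusted p = 0.0065), from 0.33 and -0.25. No rule was run over groups of 3 arrays to flag single arrays that lie apart, but each array was left out in turn.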

How the results depend on the processing

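Of 10 genes, the number called with smoke in wild type hosts was 7 to 9 when 1 array was left out, with smoke in deficient hosts 2 to 4, between genotypes in air 7 to 8, between genotypes in smoke 8 to 9, and for the interaction 3 to 5. Beyond 1.5 times the reported count lay the interaction with array weights (6 genes) and without wild type air replicate 1 or wild type smoke replicate 1 (5 genes each), and smoke in deficient hosts with the compared groups alone (5 genes, Mmp9 and Ltf added). Reversed values were those of genes that had not passed: Camp between genotypes in air was -0.046 with centring on named genes, and Mmp9 there was 0.25 without wild type air replicate 1, the range with 1 array left out being -0.30 to 0.25. Centring on named genes moved the median difference of all genes from -0.14 to -0.28 between genotypes in smoke, and the share of higher calls from 51.8% to 77.1% with smoke in wild type hosts, from 53.2% to 39.6% and 38.0% to 22.9% between genotypes in air and smoke, and from 60.9% to 41.4% for the interaction. Over all genes, 51.2%, 6.86% and 33.4% were called with array weights for smoke in wild type hosts, smoke in deficient hosts and the interaction, against 29.0%, 2.41% and 14.6%; with the compared groups alone 17.3% and 5.11% were called for smoke in the 2 genotypes, and with centring on named genes 49.4% for smoke in wild type hosts. The replicate number as a block gave 8, 3, 8, 9 and 3 genes. Same-numbered arrays had deviations correlated above 0.1 in 7 of 18 pairs (r from -0.36 to 0.37), and 7 of 12 arrays correlated best with their own number. These values do not settle whether the number marks a batch or a pairing, and the labels do not say. The number was therefore left out of the main fit and tried as a block only. The intensity filter left out Ngp. Array intensity sets no depth, and Ngp, most Mmp8 values and Ly6g lay below a log2 of 6, where RMA narrows differences.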
